A study of Mus musculus with 4 samples.

Results

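Genes that the transcription factor p53 is known to switch on were followed in liver RNA of mice given the histone demethylase inhibitor JIB-04 and of untreated mice. The 10 genes were chosen by name (Cdkn1a, Ccng1, Btg2, Bax, Fas, Phlda3, Trp53inp1, Mdm2, Zmat3 and Gdf15), and each matched 1 of the 56748 genes in the deposited table. The JIB-04 group was 2 NSG mice that received 55 mg/kg JIB-04 by oral gavage, 5 doses at 2 per week. The untreated group was 2 NSG mice labelled as untreated, not as gavaged with a vehicle. The gavage and its vehicle therefore cannot be told apart from the compound. All 4 animals are labelled wild type, and their age and the interval between the last dose and collection are not given in the labels. NSG mice are immunodeficient and, as a strain, carry the Prkdc scid mutation and lack Il2rg. Prkdc encodes a kinase of DNA break repair that also acts upstream of p53, and both groups share its mutation.

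In unstressed cells the ubiquitin ligase MDM2 keeps p53 protein low, and DNA damage or other stress frees p53 from it. p53 protein is regulated mainly after translation, so its activity is usually read from its target genes. Those targets stop the cell cycle (Cdkn1a, Ccng1, Btg2), promote cell death or limit survival signalling (Bax, Fas, Phlda3, Trp53inp1), restrain p53 itself (Mdm2), alter RNA processing (Zmat3) or act as a secreted stress signal (Gdf15). Most of these genes also answer to other factors, so none of them reads p53 alone.

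Expression was deposited as FPKM, a read count scaled to gene length and library size, which allows levels of different genes to be compared. From 36469514 to 43283827 reads per library could be recovered from these values. Of the 10 genes 9 had a mean of at least 1 FPKM over the 4 libraries and were tested, together with all 10819 genes past that filter. Tests were limma on log2(FPKM + 1), two-sided, and calls were made where p, adjusted over all 10819 genes by the Benjamini-Hochberg method, was under 0.05. With 2 animals against 2, an exact permutation test of a single gene cannot give a p below 0.333. Hepatocyte transcripts dominated every library (Alb at 31689 and 22910 FPKM in JIB-04 liver and 46658 and 46858 FPKM in untreated liver), and 5 of 6 lymphocyte markers were at 0 in all 4 libraries, the sixth, Klrb1c, reaching at most 0.0368 FPKM.

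Of the 9 tested p53 target genes 1 rose in JIB-04 liver, 0 fell and 8 did not pass the test. Voom, the other tool run, also called 1 higher and 0 lower, against 309 and 207 of all 10819 tested genes. An unadjusted limma p under 0.05 was found for 2 of the 9, Trp53inp1 and Btg2, against 15.5% of all tested genes. Over all tested genes limma called 2.14%, 165 (1.53%) higher and 67 (0.619%) lower. Higher genes were thus 71.1% of calls. Rescaling without the 50 most abundant and the mitochondrial genes made that share 58.8%, from 141 calls up and 99 down. The median log2 change of the 9 genes was 0.07, against 0.01 for all tested genes, and 5 of the 9 changes were positive, against 51.4% of all tested genes. The 2 groups did not overlap for 4 of the 9 genes, Trp53inp1 and Mdm2 being higher in both JIB-04 livers and Ccng1 and Btg2 lower, against 46.4% of all tested genes (24.6% higher and 21.8% lower).

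**Figure D1:**
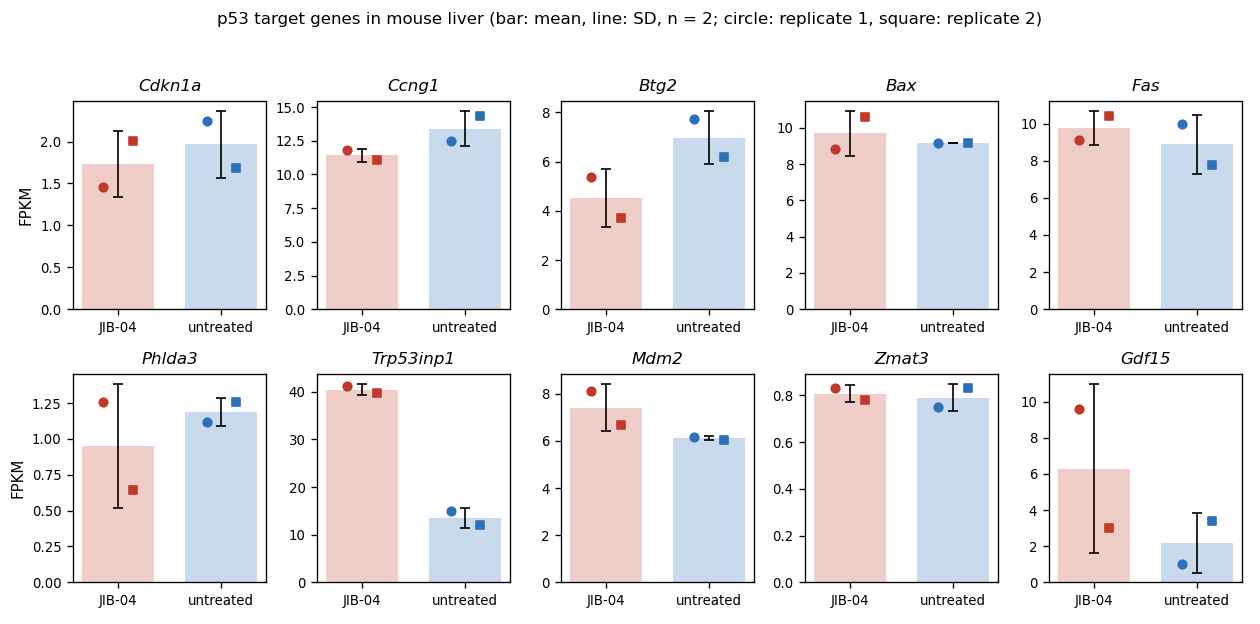
FPKM of each of the 10 p53 target genes in JIB-04 and untreated liver. Bars give the mean, lines the SD of 2 mice, circles replicate 1 and squares replicate 2. Trp53inp1 stands near 40 FPKM in JIB-04 liver (41.3 and 39.6) and at 15.0 and 12.1 in untreated liver, while the points of Cdkn1a, Bax, Fas, Phlda3, Zmat3 and Gdf15 overlap between groups.

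The gene that rose was Trp53inp1 (ENSMUSG00000028211, GRCm39 chromosome 4, 11156431 to 11174379, plus strand), which encodes a stress-induced nuclear protein that promotes p53 phosphorylation, cell death and autophagy. It had 41.3 and 39.6 FPKM in the JIB-04 livers, against 15.0 and 12.1 FPKM in the untreated livers. Both JIB-04 livers lay well above both untreated livers, and the 2 JIB-04 values differed from each other by a ratio of only 1.04. The group means were 40.4 ± 1.16 FPKM in JIB-04 liver and 13.6 ± 2.08 FPKM in untreated liver (SD, n = 2), a 2.98-fold difference. The log2 change was 1.52 (SE 0.139, 95% interval 1.18 to 1.85, limma adjusted p = 0.00528). By p-value it ranked 31 and by size of rise 61 among the 10819 tested genes. The values rested on 11456 and 9422 reads in JIB-04 liver and on 3571 and 2959 reads in untreated liver. The call ended without JIB-04 replicate 1 (adjusted p = 0.0947) and without JIB-04 replicate 2 (0.0933), with the remaining animal assumed to vary like the untreated ones, and without the filter on low values (0.102), within a range of 1.81e-05 to 0.102 over alternatives.

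No tested neighbouring gene of Trp53inp1 was called by limma. Within 100 kb of it the table lists 8 other genes, and the 3 that were tested had log2 changes of -0.09 (Ndufaf6, limma adjusted p = 0.790), -0.11 (Ints8, 0.804) and -0.21 (Dpy19l4, 0.550). Ccne2, which encodes the S-phase cyclin E2 and starts 16972 bases downstream, was at 1.31 and 0.725 FPKM in JIB-04 liver and at 0.726 and 0.954 FPKM in untreated liver, with overlapping groups and a mean under the filter. Gm11827, a long noncoding RNA gene that ends 29433 bases upstream on the same strand, was at 0.344 and 1.19 FPKM in JIB-04 liver and at 0.0767 and 0.298 FPKM in untreated liver, higher in both JIB-04 livers but under the filter and not tested. No other listed gene overlaps Trp53inp1.

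Its paralog Trp53inp2, an autophagy protein gene, went the other way. Trp53inp2 had 25.8 and 30.9 FPKM in JIB-04 liver, against 56.9 and 51.2 FPKM in untreated liver. It fell by 0.91 on the log2 scale (SE 0.139, limma adjusted p = 0.0301). The ratio of Trp53inp1 to Trp53inp2 in FPKM was 1.60 and 1.28 in JIB-04 liver and 0.264 and 0.236 in untreated liver, so the order of the paralogs was opposite in the 2 groups. The Trp53inp2 call ended on leaving out each of the 4 libraries, at adjusted p = 0.152 and 0.123 without JIB-04 replicates 1 and 2 and at 0.115 and 0.0625 without untreated replicates 1 and 2, and also without the filter on low values (0.228) and with plain moderation (0.0504). Over alternatives its lowest adjusted p was 0.00151.

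**Figure D2:**
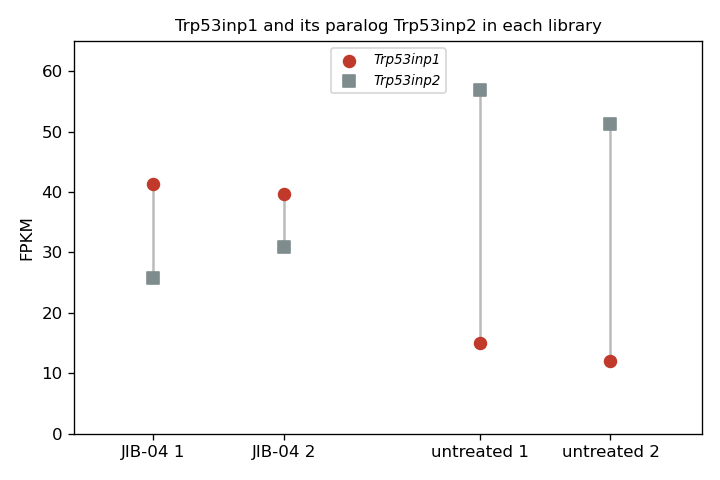
FPKM of Trp53inp1 (circles) and its paralog Trp53inp2 (squares) in each library, joined by a line. Trp53inp1 lies above Trp53inp2 in both JIB-04 livers (41.3 against 25.8 and 39.6 against 30.9 FPKM) and below it in both untreated livers (15.0 against 56.9 and 12.1 against 51.2 FPKM).

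Genes that arrest the cell cycle had lower means in JIB-04 liver, but none passed the test, with 0 of 3 called by limma or voom and 1 of 3 at an unadjusted limma p under 0.05. Cdkn1a (ENSMUSG00000023067, chromosome 17, 29309950 to 29319701) encodes p21, the inhibitor of cyclin-dependent kinases through which p53 halts the cycle. Cdkn1a had 1.46 and 2.01 FPKM in JIB-04 liver, against 2.25 and 1.68 FPKM in untreated liver. The groups overlapped, and the level was low in all 4 animals, at 222 and 262 reads in JIB-04 liver and 293 and 226 reads in untreated liver. The log2 change was -0.12 (95% interval -0.52 to 0.28, adjusted p = 0.813), so on the scale of FPKM + 1 the interval reached from 0.699 to 1.21 times the untreated level.

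Btg2 (ENSMUSG00000020423, chromosome 1, 134002908 to 134006858) encodes an antiproliferative protein that recruits the mRNA deadenylase complex. Btg2 had 5.36 and 3.69 FPKM in JIB-04 liver, against 7.74 and 6.21 FPKM in untreated liver. Both JIB-04 livers were below both untreated livers, at 0.649 times the untreated mean, but the log2 change of -0.54 did not pass the test (SE 0.183, 95% interval -0.98 to -0.10, limma adjusted p = 0.223, with 0.0230 before adjustment). Ccng1 (ENSMUSG00000020326, chromosome 11, 40639379 to 40646138) encodes cyclin G1, which brings a phosphatase to MDM2. Ccng1 had 11.8 and 11.1 FPKM in JIB-04 liver, against 12.5 and 14.3 FPKM in untreated liver. The groups were adjacent without overlap, and the log2 change was -0.21 (95% interval -0.51 to 0.09, adjusted p = 0.506).

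Among the genes of cell death and survival signalling, Trp53inp1 was the only one of 4 called. Bax (ENSMUSG00000003873, chromosome 7, 45111121 to 45116322), whose protein opens the outer mitochondrial membrane, had 8.82 and 10.6 FPKM in JIB-04 liver, against 9.19 and 9.19 FPKM in untreated liver. The 2 JIB-04 values lay on either side of the untreated ones (log2 change 0.07, 95% interval -0.24 to 0.37, adjusted p = 0.877). Fas (ENSMUSG00000024778, chromosome 19, 34268066 to 34305172), the death receptor through which hepatocytes are readily killed, had 9.13 and 10.4 FPKM in JIB-04 liver, against 9.998 and 7.77 FPKM in untreated liver. Its groups overlapped as well (log2 change 0.13, 95% interval -0.23 to 0.49, adjusted p = 0.756). Phlda3 (ENSMUSG00000041801, chromosome 1, 135693857 to 135696874), an inhibitor of the survival kinase AKT, had 1.26 and 0.646 FPKM in JIB-04 liver, against 1.12 and 1.26 FPKM in untreated liver. It rested on 84 and 37 reads in JIB-04 liver and on 64 and 74 reads in untreated liver, and the groups overlapped (log2 change -0.18, adjusted p = 0.719).

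Mdm2 (ENSMUSG00000020184, chromosome 10, 117524780 to 117546663) closes the feedback loop on p53. Mdm2 had 8.12 and 6.70 FPKM in JIB-04 liver, against 6.17 and 6.05 FPKM in untreated liver. Both JIB-04 livers were above both untreated livers, with a 1.21-fold difference of the means that did not pass the test (log2 change 0.24, SE 0.132, 95% interval -0.08 to 0.55, adjusted p = 0.472). Zmat3 (ENSMUSG00000027663, chromosome 3, 32388941 to 32420163), a zinc finger protein that binds RNA, had 0.832 and 0.781 FPKM in JIB-04 liver, against 0.749 and 0.831 FPKM in untreated liver. It was under the filter with overlapping groups, and had a log2 change of 0.01 (adjusted p = 0.978) when all genes were tested.

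Gdf15 (ENSMUSG00000038508, chromosome 8, 71082043 to 71085106) encodes a hormone that stressed tissues secrete and that lowers appetite through a hindbrain receptor. Gdf15 had 9.61 and 2.99 FPKM in JIB-04 liver, against 1.001 and 3.37 FPKM in untreated liver. One JIB-04 liver stood above the other 3, and the other JIB-04 liver was below untreated replicate 2, so the groups overlapped. The means were 6.30 ± 4.68 FPKM in JIB-04 liver and 2.19 ± 1.68 FPKM in untreated liver (SD, n = 2), and the 2.88-fold difference between them did not pass the test (log2 change 1.14, 95% interval -1.18 to 3.46, adjusted p = 0.601). The spread within groups was at the 99.4 percentile of all tested genes. The log2 change ran from 0.43 without JIB-04 replicate 1 to 1.84 without JIB-04 replicate 2.

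**Figure D3:**
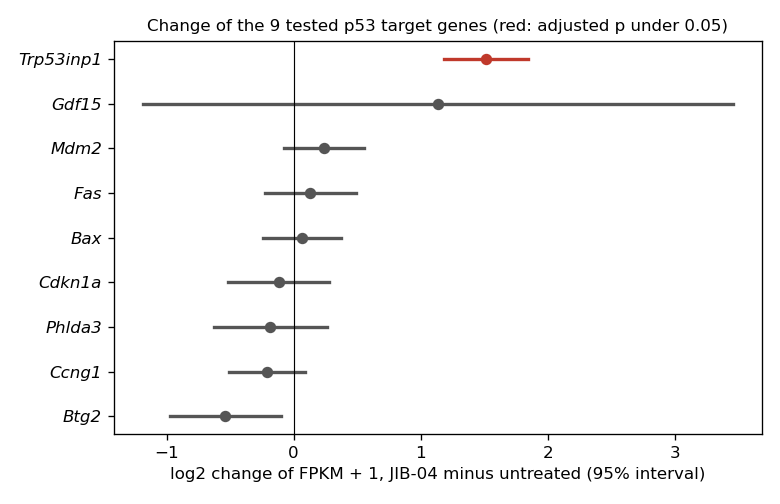
Log2 change of FPKM + 1 in JIB-04 minus untreated liver for the 9 tested p53 target genes, with the 95% interval from limma. The interval of Trp53inp1 (1.18 to 1.85) is above 0, that of Gdf15 is the widest (-1.18 to 3.46), and that of Btg2 (-0.98 to -0.10) is below 0 before adjustment.

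In order of level in untreated liver, Trp53inp1 (13.6 ± 2.08 FPKM) and Ccng1 (13.4 ± 1.32) were the highest and did not differ beyond their spread (SD, n = 2). Bax (9.19) and Fas (8.88 ± 1.58) came next, again within the spread, followed by Btg2 (6.97 ± 1.09) and Mdm2 (6.11 ± 0.0834). Gdf15 (2.19 ± 1.68), Cdkn1a (1.97 ± 0.399), Phlda3 (1.19 ± 0.0969) and Zmat3 (0.790 ± 0.0582) were the lowest. In JIB-04 liver Trp53inp1 was the highest by a wide margin, at 40.4 ± 1.16 FPKM, with Ccng1 at 11.4 ± 0.496 FPKM next. The summed level of the 10 genes was 97.6 and 88.5 FPKM in JIB-04 liver and 65.7 and 62.8 FPKM in untreated liver. Without Trp53inp1 the sum was 56.4 and 48.9 FPKM in JIB-04 liver and 50.7 and 50.7 FPKM in untreated liver, and the groups overlapped.

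**Figure D4:**
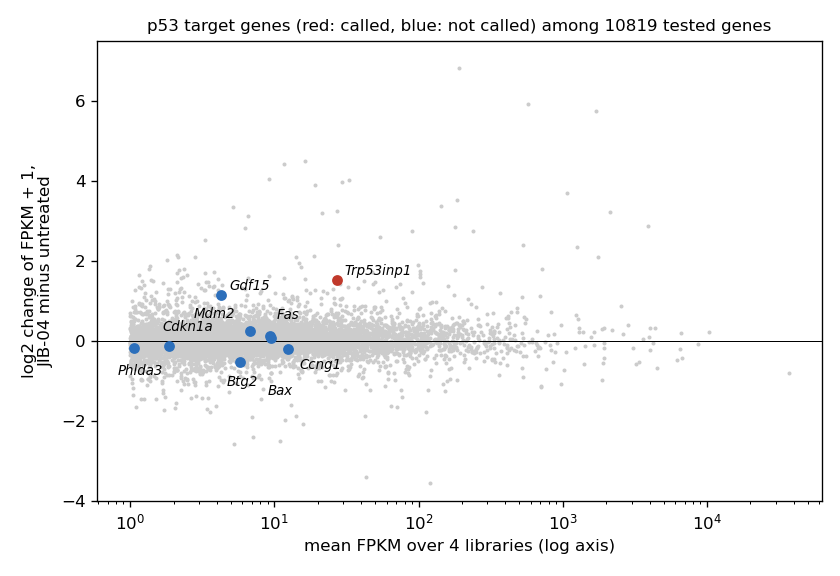
Log2 change of FPKM + 1 in JIB-04 minus untreated liver against mean FPKM over the 4 libraries (log axis) for 10819 tested genes (grey), with the 9 tested p53 target genes marked. Trp53inp1 (red, 1.52) lies at the upper edge of the cloud, Gdf15 (1.14) also lies high but is not called, and the other 7 lie between -0.54 and 0.24.

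p53 binds DNA at pairs of a short motif, here called the p53 decamer, which was looked for in RefSeq promoter windows from 250 bases before to 50 bases after the start of transcription (GRCm38.p6). Windows of 300 bases were held for 8 of the 10 genes, 10 windows in all, and Trp53inp1 and Zmat3 had none. The decamer is palindromic, so both strands were read together. At least 1 decamer was found in windows of Cdkn1a, Ccng1, Bax and Mdm2, 4 of the 10 windows, and in 8.36% of all 32851 windows. A pair of decamers at most 13 bases apart was found in 1 of the 10, that of Cdkn1a, and in 0.073% of all windows. The decamers of Ccng1, Bax and Mdm2 below are single ones, not pairs, and whether p53 binds them was not tested. The whole motif is in capitals. Only exact matches were counted, so a stretch that departs from the motif at any base is not marked.
Ccng1, minus strand, 185 bases upstream of the start, chr11:40755462-40755471: GGGCAAGCCT
Bax, minus strand, 201 bases upstream of the start, chr7:45467090-45467099: AGGCAAGCTT
Mdm2, minus strand, 186 bases upstream of the start, chr10:117710935-117710944: GAACTTGCCT

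The Cdkn1a window is printed whole because it alone holds a pair, and the Btg2 window because Btg2 had the lowest p after Trp53inp1. Decamers are in capitals, and the Btg2 window has none. The 2 decamers of the Cdkn1a window begin 73 and 51 bases upstream of a start that lies upstream of the gene's other RefSeq start, whose window has none. Directly after the second decamer follows tgacatgttc, which departs from the motif only at its first base and so is not in capitals. The marked pair is therefore not shown to be the one that p53 binds.
Cdkn1a, plus strand, chr17:29090729-29091028: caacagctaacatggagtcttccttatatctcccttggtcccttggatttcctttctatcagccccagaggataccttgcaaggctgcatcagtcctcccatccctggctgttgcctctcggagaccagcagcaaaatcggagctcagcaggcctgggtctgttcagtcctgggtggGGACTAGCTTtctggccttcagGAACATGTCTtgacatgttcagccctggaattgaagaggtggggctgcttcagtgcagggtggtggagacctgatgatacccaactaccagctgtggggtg
Btg2, minus strand, chr1:134079106-134079405: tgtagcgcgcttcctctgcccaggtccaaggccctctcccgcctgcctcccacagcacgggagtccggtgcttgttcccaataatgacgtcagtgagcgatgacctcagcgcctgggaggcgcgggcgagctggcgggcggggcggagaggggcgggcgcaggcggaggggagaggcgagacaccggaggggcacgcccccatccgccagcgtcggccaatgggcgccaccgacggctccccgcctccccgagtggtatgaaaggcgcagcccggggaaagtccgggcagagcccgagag
The 4 genes with a decamer in a window, Cdkn1a, Ccng1, Bax and Mdm2, had log2 changes between -0.21 and 0.24. Of these 4 genes 0 were called by limma or voom, and 0 had an unadjusted limma p under 0.05. Among all tested genes 2.14% were called by limma and 15.5% had such a p, so 0 of 4 says little about these genes. Trp53inp1, the only called gene, had no window, so called and uncalled genes cannot be compared by decamer. Bases outside the windows were not searched, so a gene without a decamer here may hold a p53 site elsewhere.

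Genes that act on p53 were examined next. Of 24 listed regulators, 15 were tested and 0 were called by limma or voom, with 1 at an unadjusted limma p under 0.05. That gene was Trp53, which encodes p53 itself. Trp53 had 5.27 and 5.45 FPKM in JIB-04 liver, against 3.55 and 3.75 FPKM in untreated liver. Both JIB-04 livers were above both untreated livers, a 1.47-fold difference of means that did not pass the test (log2 change 0.45, SE 0.118, limma adjusted p = 0.123, range over alternatives 0.0782 to 0.434). Mdm4, the partner of MDM2 in restraining p53, had 3.77 and 4.67 FPKM in JIB-04 liver and 3.62 and 4.05 FPKM in untreated liver (adjusted p = 0.799). Sirt1, a deacetylase of p53, averaged 2.51 FPKM in JIB-04 liver and 3.12 FPKM in untreated liver (adjusted p = 0.50), and Ppm1d, a p53 phosphatase that is also its target, 1.59 and 1.93 FPKM in the same order (adjusted p = 0.595). Prkdc, under the filter, was at 1.09 and 0.768 FPKM in JIB-04 liver and 0.916 and 1.12 FPKM in untreated liver.

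Other genes reported as p53 targets moved in both directions. Of 14 tested genes of arrest and repair 1 rose and 0 fell, of 10 tested death genes 0 rose and 1 fell, and of 14 tested genes of metabolism and secreted factors 1 rose and 1 fell. Voom called 2 and 0, 0 and 1, and 1 and 2 in the same order. Their median log2 changes were 0.04, -0.02 and 0.04, against 0.01 for all tested genes. At an unadjusted limma p under 0.05 there were 2, 3 and 8 genes, where 15.5% of all tested genes had such a p.

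Gadd45a, a stress gene of DNA repair and growth arrest, had 10.2 and 12.8 FPKM in JIB-04 liver, against 4.31 and 4.61 FPKM in untreated liver, a 2.57-fold rise with a log2 change of 1.19 (SE 0.141, adjusted p = 0.0132). Steap3, a metalloreductase of iron uptake also linked to p53-dependent death, had 1.52 and 1.55 FPKM in JIB-04 liver, against 4.17 and 3.69 FPKM in untreated liver, and fell by 0.96 on the log2 scale (adjusted p = 0.0195). The other called genes were Ephx1, an epoxide hydrolase of xenobiotic metabolism, which rose (332 and 454 FPKM in JIB-04 liver, 153 and 152 in untreated liver), and Lpin1, a phosphatidate phosphatase, which fell (4.93 and 6.91 FPKM in JIB-04 liver, 18.0 and 22.0 in untreated liver). Among those not past the test, the death gene Perp averaged 35.3 FPKM in JIB-04 liver and 46.2 FPKM in untreated liver (adjusted p = 0.185). Ctsd of the same list went the other way, at 115 and 85.3 FPKM in that order (limma adjusted p = 0.214). Voom alone called Ckap2 higher (voom adjusted p = 0.0326, limma 0.0651) and Gls2 lower (voom adjusted p = 0.0459, limma 0.123).

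Cell cycle genes that are repressed where p53 is active were mostly near or below the filter, as 20 of 30 had a mean under 1 FPKM. Of the 10 tested 2 rose and 0 fell by limma and by voom, and the median log2 change of these 10 was -0.01. Of these 10, 3 were higher in both JIB-04 livers and 1, Aurka, lower, against 24.6% and 21.8% of all tested genes. The groups overlapped for Mcm2 to Mcm7. Aurka was at 1.56 and 1.52 FPKM in JIB-04 liver and 1.72 and 2.09 FPKM in untreated liver (limma adjusted p = 0.584). Cdc20, an activator of the anaphase-promoting complex, had 4.27 and 2.87 FPKM in JIB-04 liver, against 0.482 and 0.808 FPKM in untreated liver (log2 change 1.46, adjusted p = 0.0195). Ccnb2, a mitotic cyclin, had 2.97 and 2.85 FPKM in JIB-04 liver, against 0.517 and 0.968 FPKM in untreated liver (log2 change 1.18, adjusted p = 0.0223). Both rested on few reads, between 160 and 342 per JIB-04 library and between 29 and 57 per untreated library. Of the 20 genes under the filter, which were not tested, 16 were higher in both JIB-04 livers and 1, Ccne1, was lower, against 12.2% higher and 15.8% lower among all 14447 genes under the filter with a value above 0. Those 14447 include genes seen in only 1 library, where the groups cannot separate, so they are not matched in level. Among tested genes the shares were 24.6% higher and 21.8% lower. Mki67, the proliferation marker Ki-67, was at 1.31 and 1.26 FPKM in JIB-04 liver and 0.463 and 0.560 FPKM in untreated liver. Ccnb1, a mitotic cyclin, was at 1.30 and 0.794 FPKM in JIB-04 liver and 0.142 and 0.264 FPKM in untreated liver. Aurkb, a kinase of chromosome segregation, was at 0.443 and 0.333 FPKM in JIB-04 liver and 0.0740 and 0.0270 FPKM in untreated liver, on 56 and 36 reads in JIB-04 liver and 8 and 3 reads in untreated liver.

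The 6 calls named in these lists (Gadd45a, Steap3, Ephx1, Lpin1, Cdc20 and Ccnb2) each ended without JIB-04 replicate 1 (adjusted p from 0.0684 for Ephx1 to 0.162 for Ccnb2), without JIB-04 replicate 2 (from 0.0753 for Lpin1 to 0.191 for Ccnb2) and without the filter on low values (from 0.168 for Lpin1 to 0.211 for Ccnb2). Without untreated replicate 1 the calls of Steap3 (0.0935), Ccnb2 (0.0655) and Cdc20 (0.0536) ended, and without untreated replicate 2 that of Steap3 (0.0539). The Ccnb2 call also ended when values were rescaled to TPM (0.0529).

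**Figure D5:**
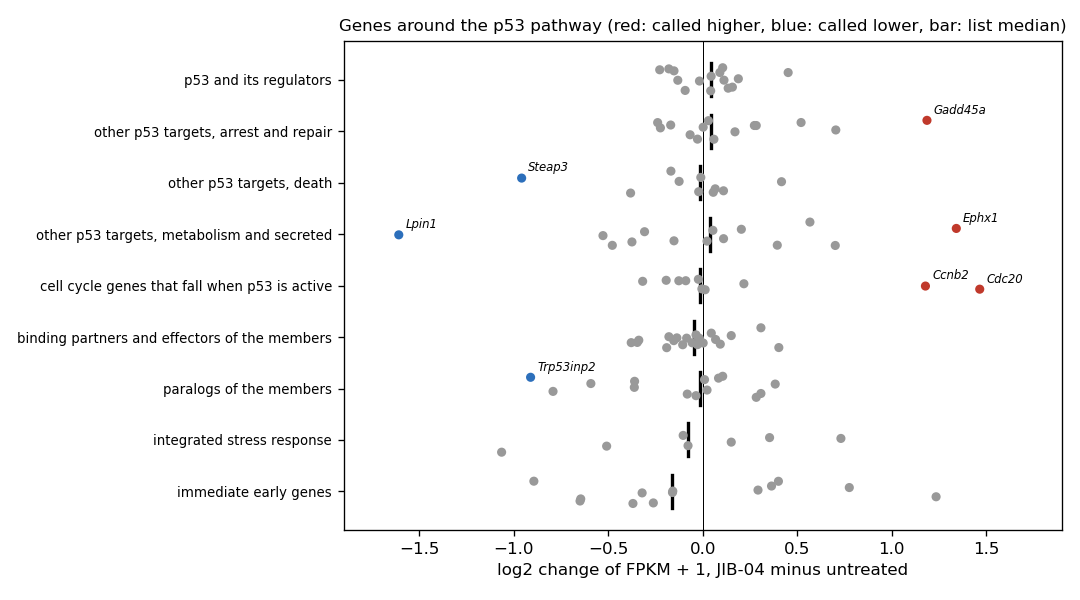
Log2 change of FPKM + 1 in JIB-04 minus untreated liver for the tested genes of 9 lists around the p53 pathway. Each point is a gene (red called higher, blue called lower, grey not called) and each bar the list's median. List medians lie between -0.16 and 0.04, and single genes such as Gadd45a (1.19) and Lpin1 (-1.61) stand apart from their lists.

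Binding partners and effectors of the 10 proteins had 0 of 20 called by limma or voom and 4 at an unadjusted limma p under 0.05 (median log2 change -0.05). Cdk4, a kinase that pairs with D-type cyclins, averaged 12.7 ± 0.590 FPKM in JIB-04 liver and 9.38 ± 0.793 FPKM in untreated liver (SD, n = 2; adjusted p = 0.173), and Bcl2l1, which restrains BAX, 3.73 ± 0.309 and 5.14 ± 0.141 FPKM in the same order (adjusted p = 0.198). Casp9, the initiator caspase downstream of BAX, averaged 3.17 ± 0.338 FPKM in JIB-04 liver and 4.29 ± 0.202 FPKM in untreated liver (adjusted p = 0.260). Paralogs of the 10 genes had 0 higher and 1 lower (Trp53inp2) of 14 by both tools. Among them Cdkn1c, the imprinted relative of p21, averaged 0.791 FPKM in JIB-04 liver and 1.72 FPKM in untreated liver (adjusted p = 0.162), and Phlda1 13.5 and 24.5 FPKM in the same order (adjusted p = 0.209).

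Several of the 10 genes, Gdf15, Btg2 and Trp53inp1 among them, also respond to stress pathways other than p53. Of 7 tested integrated stress response genes 0 were called by limma, with 3 at an unadjusted p under 0.05, and voom called 1, Atf5, lower. Atf5 averaged 58.7 FPKM in JIB-04 liver and 83.6 FPKM in untreated liver (limma adjusted p = 0.140). Atf3, a stress transcription factor, was at 3.05 and 1.74 FPKM in JIB-04 liver and 1.04 and 0.983 FPKM in untreated liver (adjusted p = 0.146), and was highest in the animal with the highest Gdf15. Chac1, a glutathione-degrading enzyme of this response, was lowest in that animal, at 0.285 and 1.21 FPKM in JIB-04 liver and 3.23 and 1.94 FPKM in untreated liver (adjusted p = 0.215). Both remarks on that animal rest on 1 liver, and a link of Atf3 or Chac1 to Gdf15 was not tested. Of 13 tested immediate early genes 0 were called by limma or voom, with 4 at an unadjusted limma p under 0.05 (median log2 change -0.16). Those 4 genes differed in direction. Jun, a subunit of AP-1, was at 16.1 and 7.81 FPKM in JIB-04 liver and at 4.40 and 4.05 FPKM in untreated liver (adjusted p = 0.203). Jund, another AP-1 subunit, was at 8.61 and 9.25 FPKM in JIB-04 liver and 6.54 and 6.49 FPKM in untreated liver (adjusted p = 0.155). Ier3 was at 1.07 and 1.30 FPKM in JIB-04 liver and 2.97 and 1.94 FPKM in untreated liver (adjusted p = 0.141), and Ier2 averaged 16.8 ± 5.27 FPKM in JIB-04 liver and 26.3 ± 3.11 FPKM in untreated liver (SD, n = 2; limma adjusted p = 0.239).

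Markers of other cells were followed because RNA of a whole liver mixes cell types, and fewer cells of a type cannot be told apart from less RNA per cell. Of the 30 tested markers of 7 cell types 0 were called by limma, with 4 at an unadjusted p under 0.05, and voom called 2 lower, 1 of stellate cells and 1 of red cells. The 6 Kupffer cell markers summed to 227 and 275 FPKM in JIB-04 liver and 296 and 252 FPKM in untreated liver, and the 6 endothelial markers to 65.2 and 68.7 FPKM in JIB-04 liver and 81.8 and 63.1 FPKM in untreated liver. The 5 neutrophil markers summed to 45.0 and 73.0 FPKM in JIB-04 liver and 26.1 and 6.47 FPKM in untreated liver, while Ly6g was at most 0.0562 FPKM. S100a8, which held most of that sum in JIB-04 liver, was at 36.3 and 63.0 FPKM in JIB-04 liver and at 6.68 and 2.40 FPKM in untreated liver (limma adjusted p = 0.131). S100a9, which held most of it in untreated liver, was at 7.51 and 8.45 FPKM in JIB-04 liver and at 18.7 and 4.01 FPKM in untreated liver, with overlapping groups. The 5 red cell markers summed to 654 and 1782 FPKM in JIB-04 liver and 2952 and 1845 FPKM in untreated liver. The 6 stellate cell markers summed to 51.1 and 47.8 FPKM in JIB-04 liver and 70.0 and 54.4 FPKM in untreated liver, and all 4 of them that were tested were lower in both JIB-04 livers, as were 21.8% of all tested genes. Lrat, the retinol-storing enzyme of these cells, came closest to a call by limma (limma adjusted p = 0.0549). Lrat was at 3.10 and 3.03 FPKM in JIB-04 liver and 5.35 and 5.15 FPKM in untreated liver. Beside Trp53inp1, the neutrophil sum and S100a8 were higher in both JIB-04 livers. The stellate and red cell sums were lower in both. So was the sum of the 6 hepatocyte markers, most of it Alb. That sum was 43531 and 35531 FPKM in JIB-04 liver and 61444 and 59276 FPKM in untreated liver. The part of cell makeup in the Trp53inp1 difference was not tested.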

How the data were processed

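Liver RNA of 4 mice was sequenced, and the deposited table holds the authors' FPKM per gene and library beside gene length, position and biotype. The submitters' processing notes name genome build GRCm39 (mm39). Not given in the sources used here were the aligner, counter, annotation release and strandedness, so reads of overlapping antisense genes could not be separated. The genes listed as overlapping Cdkn1a, Bax and Fas held at most 6 reads per library. FPKM multiplied by gene length gave whole multiples of 1 read for 100% of values (tolerance 0.01). Ddit3 is listed on 2 rows, and the row with reads was used.

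All genes with a mean of at least 1 FPKM were fitted with limma 3.58.1 in R 4.3.3 on log2(FPKM + 1), with trend and robust moderation and 2 residual degrees of freedom before moderation. A log2 change is on that scale, which understates changes of low genes, and a fold is the ratio of mean FPKM. The fit was tested on simulated data, where the share of false calls was above the 0.05 threshold and small changes were often missed. No set test was run. The labels give separate mice, so p-values rest on the spread between 2 animals a group, moderated by the spread of other genes. The moderation added a median of 4.77 degrees of freedom to the 2 from the animals, so much of that spread is borrowed. The 10 genes, the 9 pathway lists and the 8 marker lists were chosen with earlier results of these data known. All 235 list symbols were in the table, and 1 result is not reported here. From each list the called genes, otherwise up to 3 of lowest p, and always Trp53 and Mdm4, were to be named. Ccne2, Gm11827, Ccne1, Mki67, Ccnb1, Aurkb, Ier2, S100a9, Prkdc, Perp, Ctsd, Ckap2, Gls2, Cdkn1c, Phlda1, Klrb1c, Ly6g, the Cdkn1a window and the shorter decamers were chosen after their values were seen. Aurka and the Mcm genes were also named after their values were seen. Promoters are those of RefSeq. Alternatives are listed with their effect under the dependence on processing.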

Additional observations from a re-analysis of the deposited data

How the results depend on the processing

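Of 141 refits of the 9 tested p53 target genes under the alternatives, 133 kept the direction and the side of the threshold, and 3 (all of Trp53inp1) kept the direction but lost the call. The 5 that reversed were of genes not called: Cdkn1a at 0.027 without JIB-04 replicate 1 and 0.019 without untreated replicate 1, Bax at -0.053 without JIB-04 replicate 2, Fas at -0.032 without untreated replicate 2 and Phlda3 at 0.045 without JIB-04 replicate 2. Mdm4 also reversed, at -0.020 without JIB-04 replicate 2. Over the 4 fits that leave out 1 library, log2 changes ran from -0.26 to 0.027 for Cdkn1a, from -0.053 to 0.18 for Bax, from -0.032 to 0.30 for Fas, from -0.41 to 0.045 for Phlda3, from 0.11 (without JIB-04 replicate 1) to 0.36 (without JIB-04 replicate 2) for Mdm2, from -0.76 (without JIB-04 replicate 1) to -0.32 (without JIB-04 replicate 2) for Btg2, from -0.30 (without untreated replicate 1) to -0.12 (without untreated replicate 2) for Ccng1 and from -0.020 to 0.23 for Mdm4. Under pseudocounts of 0.1 and 0.5, a filter of 5 FPKM, 4 rescalings, plain moderation (no trend, not robust), voom, protein-coding genes only and the replicate number as a block, 1 of the p53 target genes was called. Without the filter 0 were, with 2 at an unadjusted p under 0.05. Leaving out 1 library gave 0 to 1. Cdkn1a, Phlda3 and Gdf15 had no value at a filter of 5 FPKM.

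Over all genes, calls numbered 20 higher and 0 lower (967 lower at an unadjusted limma p under 0.05) without the filter, 107 and 41 rescaled to TPM, 309 and 207 with voom on recovered reads, 256 and 141 with protein-coding genes only, 294 and 170 at an adjusted p under 0.1, and 100 and 31 with an absolute log2 change of at least 1. Leaving out 1 library gave 22 to 107 higher and 1 to 54 lower. With the replicate block the lower calls numbered 121 and the higher ones 236. Same-numbered animals did not deviate together (correlation -0.05), so the number is not taken to pair them. The cause of these shifts was not tested. Depth limits the genes with few reads: per library Phlda3 had 37 to 84, Gdf15 68 to 763, Cdkn1a 222 to 293 and Zmat3 314 to 408.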
